A study of Mus musculus with 30 samples.

Results

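The response to doxycycline (DOX) of the iETV2 line of mouse cells was examined in 6 RNA-seq libraries, 3 labelled iETV2, Control and 3 labelled iETV2, DOX, out of 18 RNA libraries and 30 samples in the series. The 6 libraries are labelled embryonic stem cell. The members are all expressed genes of these 6 libraries. Of 55487 Ensembl genes in the count tables, 22025 passed the filter on low counts and were tested. iETV2 is a line in which DOX, an antibiotic used to drive inducible transgenes, switches on Etv2. The untreated group carries the same inducible construct. The title of the series concerns ETV2, also called ER71, and the histone demethylase KDM4A, and here the question is which programs other than blood and endothelium moved with DOX.

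ETV2 is an ETS-family transcription factor that is switched on for a short time in mesoderm leaving the primitive streak, and it is required for the first endothelial and blood cells. The streak also gives rise to the node and notochord, to paraxial mesoderm and to lateral and extraembryonic mesoderm. The node carries motile cilia that set up left-right asymmetry, and it secretes Sonic hedgehog and inhibitors of BMP and Nodal signalling. The dose and duration of DOX, the day of culture and the promoter of the transgene are not given in the sources used here. No library of DOX-treated cells without the inducible Etv2 is among the 6, so effects of DOX itself and of Etv2 cannot be told apart. In bulk RNA, fewer cells of a type and less RNA per cell cannot be told apart either.

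Libraries held 42586343 to 65950842 counts without DOX and 55006350 to 68222429 counts with DOX. Levels are given in CPM (counts scaled to the library total), either per library in the order of replicates 1, 2 and 3 or as mean ± SD (n = 3 per group). Changes are log2 differences, DOX minus control, ± SE. A gene is said to have risen or fallen only where its p, from edgeR's quasi-likelihood test with Benjamini-Hochberg adjustment over all 22025 genes, was under 0.05. Nothing in the labels ties replicates to separate cultures. The p-values therefore measure only how far these libraries spread, which may be technical. Both libraries numbered 3 held counts in more genes (42204 and 41480) than the other 4 (33100 to 37061). They also held more counts in odorant, pheromone and trace-amine receptor genes, 188.1 and 188.8 CPM in sum against 68.2 to 103.9 CPM in the other 4.

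The targeted gene matched the labels. Etv2 (ENSMUSG00000006311, chromosome 7, 30633616 to 30636509, GRCm38.p6 as for all positions below) stood at 2.73, 3.02 and 3.05 CPM without DOX and 19.7, 18.1 and 18.2 CPM with DOX. All DOX libraries were above all untreated ones, and reads of the transgene and of the endogenous gene cannot be told apart in these counts. Kdr, a VEGF receptor of early mesoderm, stood at 9.38, 7.19 and 7.18 CPM without DOX and 229, 238 and 233 CPM with DOX. Tal1, a transcription factor needed for blood, and Cdh5, the endothelial cadherin, changed by 6.24 ± 0.18 and 6.01 ± 0.13. The label embryonic stem cell was checked against its defining genes. Pou5f1, a core pluripotency factor, was present in both groups at 424, 371 and 417 CPM without DOX and 316, 256 and 344 CPM with DOX. The mesoderm gene T (Brachyury) was also well expressed in both groups, at 894, 844 and 847 CPM without DOX and 695, 652 and 689.9 CPM with DOX. The libraries labelled embryonic stem cell thus held RNA of pluripotency and of primitive streak genes together, without as well as with DOX.

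With DOX, most tested genes of motile cilia, of the node and notochord, of the anterior neural plate, of epithelial junctions, of glycolysis and of the hypoxia response fell, as did Shh and its targets Ptch1 and Gli1. Most tested HOX genes, genes of lateral and extraembryonic mesoderm and BMP genes rose. Over all genes, 5939 of 22025 changed, which is 27.0%, with 3010 higher (13.7%) and 2929 lower (13.3%), and the median log2 change was 0.00. With a log2 change of 1 or more, 918 genes rose (4.17%), and with a change of -1 or less, 946 fell (4.3%). Groups of 3 did not overlap in 9155 genes (41.6%). Without DOX replicate 1, the number of genes that rose was 1918 in place of 3010. The lists below were written with earlier results of these data known, so their counts are descriptions and are to be read against these shares. The share was larger among better expressed genes. In a fit limited to 15633 genes at 1 CPM or more in 3 libraries, 6643 changed, 3329 higher and 3314 lower.

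**Figure D1:**
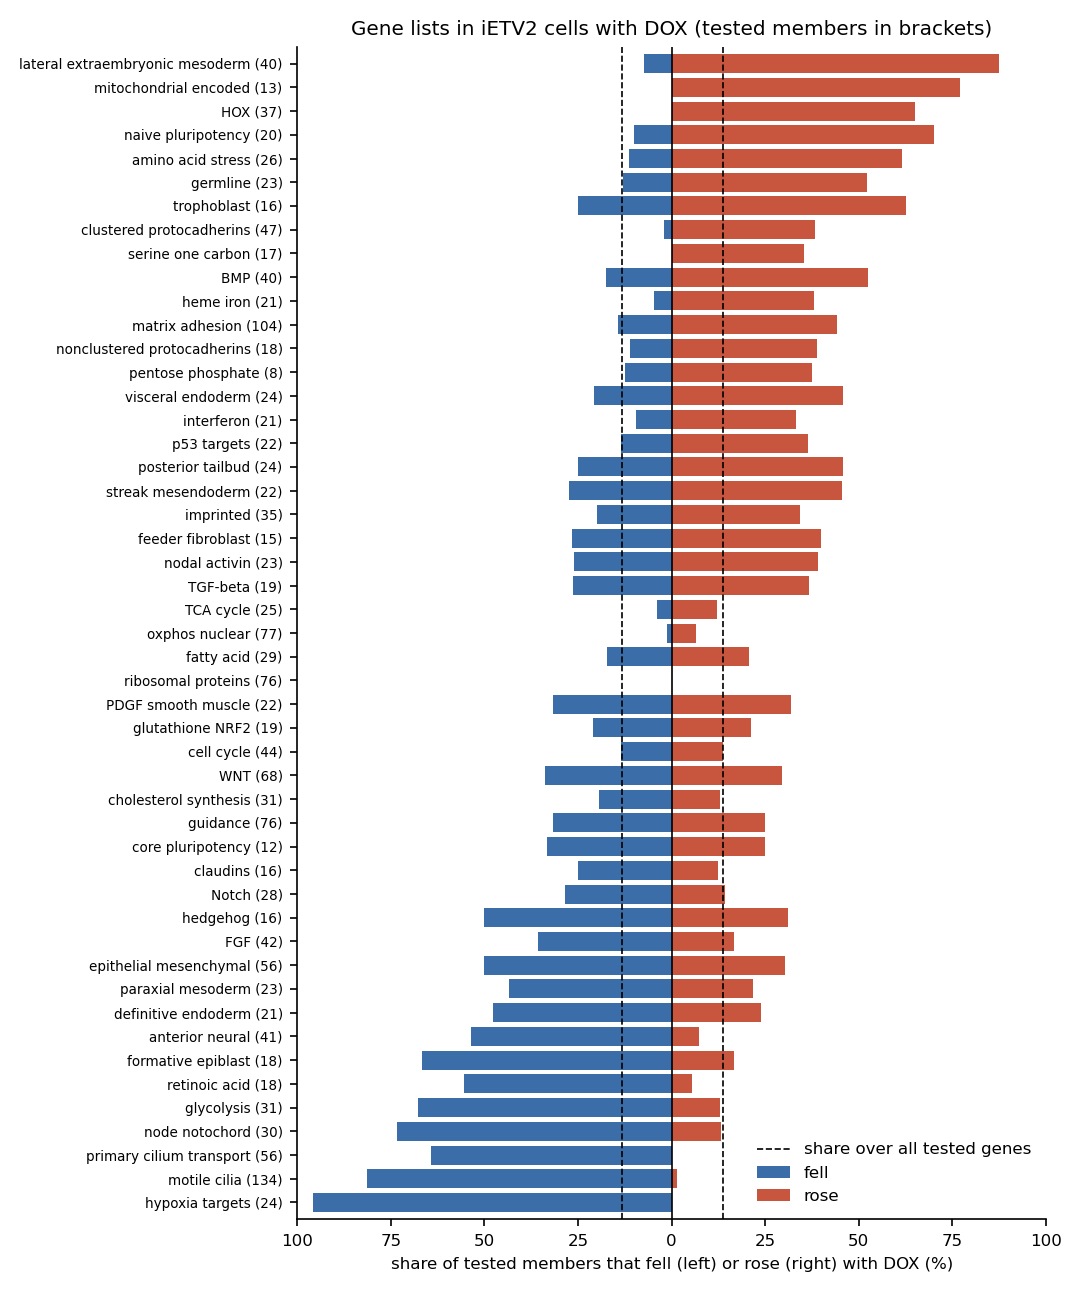
Share of tested members of each of 49 gene lists that rose (right, red) or fell (left, blue) with DOX in iETV2 cells, in percent, with the number of tested members in brackets. Dashed lines mark the shares over all 22025 tested genes, 13.7% higher and 13.3% lower. Motile cilia, hypoxia targets and node genes extend far to the left, HOX and lateral mesoderm genes far to the right, and no ribosomal protein gene passed in either direction.

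Motile cilia genes had the lowest median change of the 49 lists. A motile cilium is built on microtubule doublets that carry dynein motor arms, radial spokes, nexin links and, in most cell types, a central pair, and FOXJ1 together with RFX factors switches on the genes for these parts. Of 134 tested genes of motile cilia, 109 fell and 2 rose, with a median change of -1.93. Groups did not overlap in 116 of them. The summed level of the list was 2161 to 2207 CPM without DOX and 856 to 914 CPM with DOX. The 4 further members of this list did not pass the count filter. Over all 49 lists, 7 entries had no match among the genes of the files, and all of them were entries of this list.

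Foxj1 (ENSMUSG00000034227, chromosome 11, 116330704 to 116335499), the main transcription factor of motile ciliogenesis, stood at 236, 224 and 218 CPM without DOX and 13.7, 14.2 and 13.7 CPM with DOX. The groups were far apart, and Foxj1 changed by -4.01 ± 0.08 (edgeR, adjusted p = 1.95e-14). Among the factors that bind the X-box of cilia gene promoters, Rfx3 stood at 219.9, 250.4 and 227 CPM without DOX and 125, 137 and 118 CPM with DOX, and Rfx2 went from 27 ± 0.27 to 17.7 ± 0.58 CPM. Both fell, with changes of -0.87 ± 0.08 for Rfx3 and -0.60 ± 0.07 for Rfx2. In all, 6 of 8 regulators fell. The exceptions were Mcidas and Ccno, which act in cells with many cilia. Mcidas went from 0.93 ± 0.079 to 0.857 ± 0.13 CPM and Ccno from 44.2 ± 1.9 to 41 ± 0.53 CPM, and neither passed (adjusted p = 0.881 and 0.364, edgeR).

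Most dynein arm genes fell. For outer arms, the force-generating motors of the axoneme, 11 of 13 genes fell (median -2.17). Dnah5, an outer arm heavy chain of airway and nodal cilia, stood at 24, 24 and 23.8 CPM without DOX and 0.65, 0.718 and 1.33 CPM with DOX. Dnah11, the heavy chain whose loss randomises left-right asymmetry, stood at 42.1, 46 and 43.6 CPM without DOX and 7.22, 7.75 and 7.05 CPM with DOX. All 3 DOX libraries were low for both genes. Dnah8, an outer arm heavy chain best known from sperm flagella, went the other way, with 43.6, 48 and 48.8 CPM without DOX and 124, 138 and 126 CPM with DOX and a change of 1.48 ± 0.07. For inner arms, 10 of 15 genes fell, among them Ccdc39 (27.7 ± 2.2 to 4.13 ± 0.46 CPM) and Ccdc40 (46.6 ± 1.2 to 8.57 ± 1.2 CPM), whose products form the ruler that spaces inner arms and nexin links. Of the cytoplasmic factors that assemble dynein arms, 10 of 13 fell, with a smaller median of -0.62. Zmynd10 went from 11.1 ± 1.3 to 1.56 ± 0.46 CPM, while Dnaaf3 rose slightly, from 18.1 ± 0.39 to 21.2 ± 0.53 CPM.

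Radial spoke genes fell in 12 of 16 cases (median -2.39). Cfap206, a spoke-associated protein, stood at 21.4, 19.9 and 20.8 CPM without DOX and 0.387, 0.425 and 0.473 CPM with DOX, and its groups differed by -5.58 ± 0.13. Central pair genes fell in 13 of 14 cases (median -2.33), for example Spag6l from 11.4 ± 0.15 to 0.716 ± 0.14 CPM. Nexin link genes fell in 10 of 11 cases, with Drc1 going from 31.2 ± 0.59 to 1.31 ± 0.45 CPM. Of the microtubule inner proteins, which line the inside of the doublets, 23 of 24 fell, among them Enkur (21.3 ± 0.17 to 0.91 ± 0.18 CPM) and the tektin gene Tekt1 (12.8 ± 0.45 to 0.598 ± 0.12 CPM). Among other axonemal genes, 14 of 20 fell, Dynlrb2 having the lowest change. It stood at 4.21, 4.29 and 4.37 CPM without DOX and 0.0176, 0.147 and 0.0727 CPM with DOX.

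**Figure D2:**
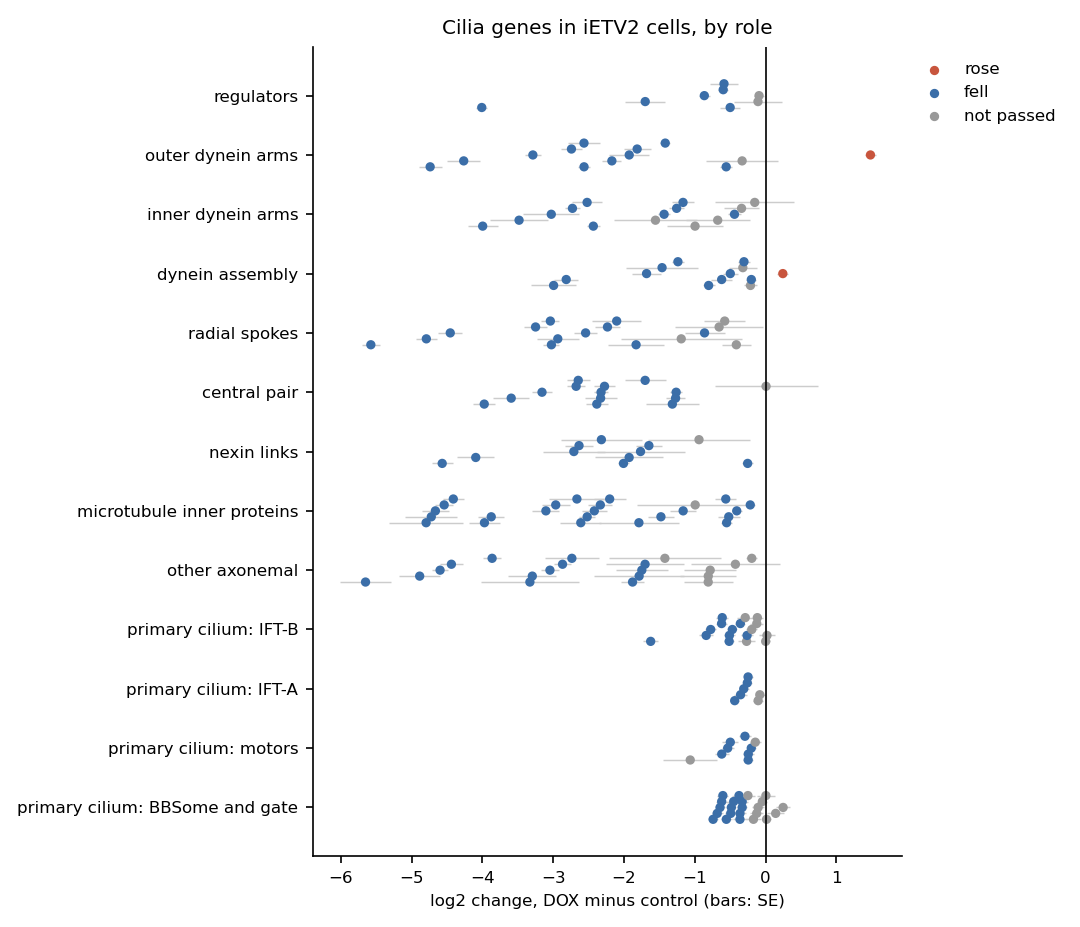
Log2 change (DOX minus control) of each tested cilia gene in iETV2 cells, grouped by the structure it builds; points are genes, bars are SE, and colours mark rose, fell and not passed. Axonemal genes spread from about -5.65 (Dynlrb2) to 1.48 (Dnah8), while genes of transport in all cilia lie between -1.62 and 0.25.

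Genes that every cilium needs, also the immotile primary cilium that most cells carry, were listed apart, with Ift88 also among motile cilia genes. Of 56 such genes, 36 fell, with a median change of -0.33. None rose by edgeR, against 1 at an unadjusted edgeR p under 0.05 and 0 by DESeq2. Intraflagellar transport moves cargo along the axoneme. In its anterograde complex, IFT-B, 10 of 17 genes fell. Ift81, which binds tubulin cargo, stood at 30.6, 32.2 and 33.1 CPM without DOX and 18.9, 19.2 and 17.2 CPM with DOX. In the retrograde complex, IFT-A, 5 of 7 fell (median -0.26). Among transport motor genes 7 of 9 fell. In the BBSome and transition zone, which gate the cilium, 14 of 23 fell, including Bbs4 from 27.9 ± 0.84 to 17.7 ± 0.11 CPM and Tmem231 from 45.3 ± 0.66 to 26.9 ± 0.84 CPM.

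Promoter sequences of cilia genes were searched for the X-box, the site of RFX factors, since Rfx2 and Rfx3 were among the genes that fell. An X-box consensus was looked for on both strands in the 250 bases before the outermost RefSeq start of each gene (GRCm38.p6). It was found in 8 of 109 motile cilia promoters (7.34%), against 103 of 13560 promoters of tested genes (0.76%) and 178 of all 27025 (0.659%). The forkhead pattern TGTTTAC, also searched on both strands, was in 9 of 109 (8.26%), against 2.19% of promoters of tested genes and 3.06% of all promoters. Among members that fell, it was in 4 of 82 promoters (4.88%), and the X-box in 7 of 82 (8.54%). A match describes the letters in the window and not binding. Shown are the 120 bases before the start of Cfap45 (chromosome 1, chr1:172521010-172521129, plus strand) and Iqca (chromosome 1, chr1:90153437-90153556, minus strand), 2 members that fell and were chosen for this match, read 5′ to 3′ with the match in capitals.
Cfap45: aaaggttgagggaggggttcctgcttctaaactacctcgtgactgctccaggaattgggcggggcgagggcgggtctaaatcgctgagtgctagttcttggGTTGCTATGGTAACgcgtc
Iqca: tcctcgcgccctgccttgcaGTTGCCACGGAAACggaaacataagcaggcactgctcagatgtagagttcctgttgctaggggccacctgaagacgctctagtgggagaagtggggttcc
Cfap45, a microtubule inner protein, went from 7.11 ± 1.1 to 1.54 ± 0.68 CPM, and Iqca, a nexin link ATPase, from 2.64 ± 0.56 to 0.405 ± 0.36 CPM.

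Node and notochord genes fell with the cilia genes. Of 30 tested, 22 fell and 4 rose (median -1.11), and the lists share Foxj1, Rfx3 and Tppp3. Noto (ENSMUSG00000068302, chromosome 6, 85423886 to 85428877), a homeobox gene of the node and notochord, stood at 34.3, 34.4 and 34.4 CPM without DOX and 1.55, 1.1 and 2.22 CPM with DOX. Shh (ENSMUSG00000002633, chromosome 5, 28456840 to 28467101), the hedgehog ligand of these tissues, stood at 29, 28.2 and 27.5 CPM without DOX and 1.9, 1.95 and 1.64 CPM with DOX. For both genes the 3 DOX libraries were more than 10-fold below every library without DOX. Foxa2, a forkhead factor of node, floor plate and endoderm, went from 109 ± 6.3 to 19.1 ± 0.37 CPM, and Foxd4 from 11 ± 0.88 to 0.261 ± 0.2 CPM. T, needed for notochord and tail, fell by only 0.33 on the log2 scale.

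The inhibitors that the node secretes were low with DOX. Chrd (chordin), a BMP antagonist, stood at 115, 113 and 115 CPM without DOX and 18.1, 17.4 and 19.1 CPM with DOX. Cer1, an antagonist of Nodal, BMP and WNT ligands, stood at 114, 119 and 115 CPM without DOX and 19.8, 19.6 and 17.1 CPM with DOX. Each changed by a similar amount, -2.64 ± 0.07 for Chrd and -2.60 ± 0.08 for Cer1. Nog (noggin), also a BMP antagonist, went from 8.46 ± 0.73 to 1.68 ± 0.11 CPM. Fst (follistatin), which binds activin, rose from 255 ± 9.1 to 301 ± 4.4 CPM. Among genes that sense or transmit left-right asymmetry, Pkd1l1, part of the flow-sensing channel of nodal crown cells, went from 365 ± 26 to 55.9 ± 4.2 CPM, and Dand5, the Nodal antagonist of the same cells, from 2.94 ± 0.2 to 0.927 ± 0.19 CPM.

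In the hedgehog pathway, the ligand gene Shh and several targets fell. Hedgehog ligands relieve the block by PTCH receptors, and Ptch1, Hhip and Gli1 are themselves induced by the signal. Ptch1 (ENSMUSG00000021466, chromosome 13, 63508328 to 63573460) stood at 592, 636 and 609 CPM without DOX and 136, 144 and 126 CPM with DOX. Gli1, the transcriptional effector that reads out pathway activity, stood at 45.8, 45.6 and 42.6 CPM without DOX and 10.1, 10.2 and 12.1 CPM with DOX. Both were lower in every DOX library, with changes of -2.17 ± 0.08 and -2.04 ± 0.09. Hhip (-2.07 ± 0.22), which binds and sequesters the ligand, fell too. Gli3, mainly a repressor, rose from 128 ± 5.4 to 168 ± 6.4 CPM, and the co-receptor gene Gas1 from 21.3 ± 1.8 to 31.6 ± 0.78 CPM. Foxf1, a hedgehog target in lateral mesoderm that is also a lateral mesoderm gene by itself, rose from 0.909 ± 0.23 to 26.1 ± 0.66 CPM. In all 8 of 16 hedgehog genes fell and 5 rose.

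**Figure D3:**
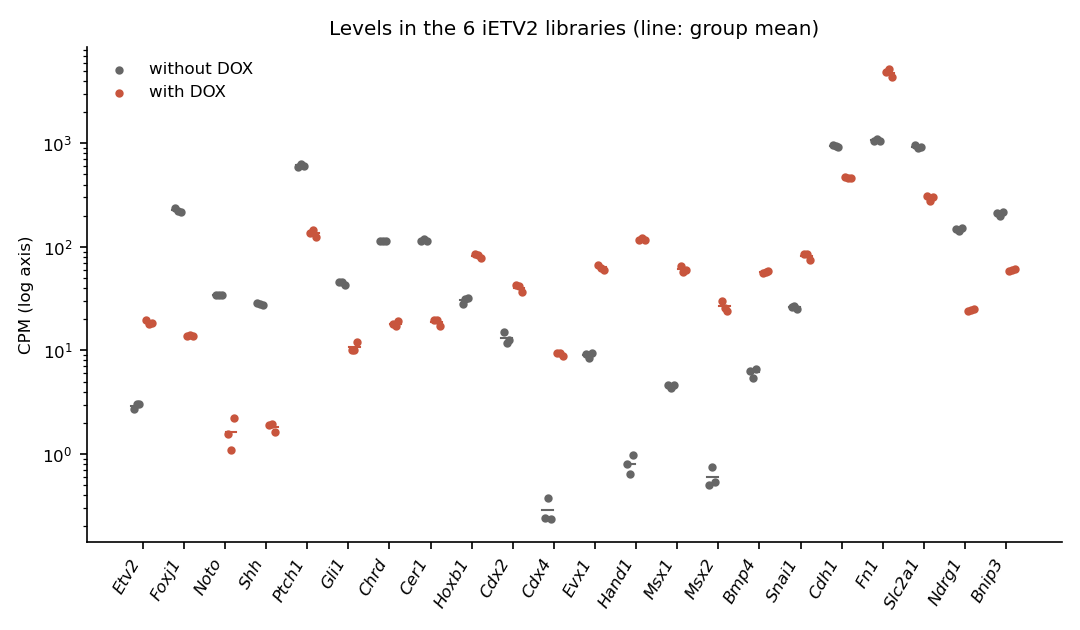
CPM of 22 named genes in each of the 6 iETV2 libraries on a log axis, grey without and red with DOX, short lines marking group means. The 3 libraries of a group lie close together for each gene and the groups do not overlap; Foxj1, Noto, Shh and the hedgehog targets are low with DOX, and Hand1, Msx2 and Cdx4 are high.

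Nodal and activin genes did not move as a block. Of 23 tested, 9 rose and 6 fell (median 0.04). Nodal itself went from 43.2 ± 2.2 to 44.7 ± 0.62 CPM and did not pass (adjusted p = 0.604, edgeR). Its antagonists parted. Lefty1 went from 57.7 ± 2.4 to 28.7 ± 1.0 CPM and fell, and Lefty2 went from 17 ± 0.36 to 29.1 ± 1.9 CPM and rose. The co-receptor genes parted as well, Cfc1 (cryptic) going from 64.5 ± 3.2 to 30.2 ± 3.4 CPM and Tdgf1 (cripto) from 322 ± 6.6 to 413 ± 7.8 CPM. The Nodal targets Eomes (0.90 ± 0.07) and Mixl1 (2.10 ± 0.08), factors of streak mesendoderm, rose. Smad3, a transducer of the pathway, fell from 105 ± 1.9 to 68.1 ± 1.6 CPM.

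WNT genes moved both ways, 20 of 68 rising and 23 falling. Of 19 ligands, 8 rose and 3 fell. Wnt5a, a noncanonical ligand of the tail end, stood at 22.6, 24.6 and 23 CPM without DOX and 113, 127 and 108 CPM with DOX. Wnt3, needed to form the streak, went from 24.4 ± 0.7 to 56.9 ± 1.7 CPM, and Wnt8a fell by a change of -1.23 ± 0.08. Of 18 receptor genes 9 fell, with Fzd5 going from 156 ± 5.1 to 49.3 ± 2.6 CPM and Fzd8, a receptor of the anterior epiblast, from 47.7 ± 3.5 to 11.9 ± 0.71 CPM. Fzd10 ran against them, at 31.1, 29.3 and 29.4 CPM without DOX and 108, 102 and 98.1 CPM with DOX. Among secreted modulators, the inhibitor gene Sfrp1 fell (164 ± 2.4 to 36.4 ± 0.98 CPM) and Notum, a feedback inhibitor, rose (1.38 ± 0.16). Of 9 targets of canonical WNT, 4 rose and 2 fell. Axin2, a standard readout, stood at 59.2, 61.6 and 61.8 CPM without DOX and 138, 137 and 125 CPM with DOX, and Nkd1 changed by 1.01 ± 0.08. Sp5, also a direct target, did not pass (-0.18 ± 0.21). Ascl2 (-1.69 ± 0.27) and Tcf7l1 (-0.34 ± 0.09) fell.

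Anterior neural genes fell in 22 of 41 cases and rose in 3 (median -0.69). Six3, a forebrain factor, stood at 9.76, 9.25 and 10.1 CPM without DOX and 0.299, 0.572 and 1.18 CPM with DOX. Otx2, a head gene that the epiblast and node also use, stood at 142, 138 and 139 CPM without DOX and 58.9, 57.1 and 57.8 CPM with DOX. No library with DOX reached the lowest library without it for either gene. Hesx1 (-3.23 ± 0.30), a forebrain repressor, and the neural plate genes Irx3 (-2.07 ± 0.11) and Irx5 (-2.75 ± 0.16) fell. Gbx2, which sets the hindbrain border opposite Otx2, rose from 11.4 ± 0.66 to 14.3 ± 0.79 CPM. The summed level of the list was 1303 to 1377 CPM without DOX and 720.3 to 785 CPM with DOX.

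HOX genes, which pattern the body from hindbrain to tail in the order of their position in 4 clusters, rose in 24 of 37 tested cases (median 1.55). None fell by edgeR, against 0 at an unadjusted edgeR p under 0.05 and 0 by DESeq2. Hoxb1 (ENSMUSG00000018973, chromosome 11, 96365746 to 96368254), the most anterior gene of its cluster and an early streak gene, stood at 28, 31.7 and 32.3 CPM without DOX and 85.5, 83.7 and 77.8 CPM with DOX. Hoxd9, a gene of more posterior position, stood at 0.24, 0.182 and 0.352 CPM without DOX and 7.61, 6.11 and 5.33 CPM with DOX. Hoxb8 stood at 0.464, 0.576 and 0.634 CPM without DOX and 2.67, 2.95 and 2.85 CPM with DOX, and Hoxa13, among the last in the series, at 0, 0 and 0.188 CPM without DOX and 1.0, 0.953 and 1.0 CPM with DOX. DOX libraries were higher in all 4 genes. By cluster, 7 of 11 Hoxa, 7 of 9 Hoxb, 5 of 8 Hoxc and 5 of 9 Hoxd genes rose. Most HOX genes were low, with a summed level over the list of 54.4 to 67.1 CPM without DOX and 159 to 162 CPM with DOX. Hoxd12 (-1.58) was the single tested HOX gene with a negative change, and it did not pass. Overlapping and antisense transcripts are frequent in these clusters and the strand setting of the counts is not given, so single HOX values are uncertain. In a fit over 12 libraries, which included the second DOX-treated line, 15 HOX genes rose in place of 24.

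CDX factors act upstream of posterior HOX genes. Cdx2 stood at 14.9, 11.8 and 12.5 CPM without DOX and 42.7, 42.1 and 36.4 CPM with DOX. Cdx4 stood at 0.24, 0.379 and 0.235 CPM without DOX and 9.37, 9.41 and 8.8 CPM with DOX, close to absent without DOX. Evx1, a homeobox gene of the posterior streak, went from 9.04 ± 0.52 to 63.3 ± 3.7 CPM (edgeR, adjusted p = 4.94e-13). Fgf3, a ligand of the posterior streak, went from 4.86 ± 0.44 to 25.4 ± 0.0067 CPM. Other tail bud genes fell, among them Nkx1-2 (-0.53 ± 0.09), a marker of neuromesodermal progenitors, and Sall4 (-0.44 ± 0.08). The posterior and tail bud list thus had 11 genes that rose and 6 that fell of 24, with a median of 0.13.

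In lateral and extraembryonic mesoderm, the tissue that gives heart, body wall, limb, amnion and allantois, 35 of 40 genes rose and 3 fell (median 1.84). Hand1 (ENSMUSG00000037335, chromosome 11, 57828713 to 57832147), a basic helix-loop-helix factor of extraembryonic mesoderm and heart, stood at 0.79, 0.637 and 0.986 CPM without DOX and 115, 122 and 116 CPM with DOX. Msx2, a homeobox gene that follows BMP signals, stood at 0.498, 0.743 and 0.54 CPM without DOX and 30.1, 25.9 and 23.9 CPM with DOX, and Msx1 at 4.66, 4.34 and 4.58 CPM without DOX and 65.6, 57.5 and 59.9 CPM with DOX. In each case the 3 libraries with DOX were at least 10-fold above those without. Tbx3, a T-box factor of allantois, limb and naive pluripotency, went from 5.57 ± 0.64 to 139 ± 12 CPM. Hapln1, a link protein of hyaluronan matrix, went from 0.266 ± 0.13 to 22.4 ± 0.99 CPM, and the small myelin protein gene Pmp22 from 5.3 ± 0.55 to 98.2 ± 4.9 CPM. Prrx1 (-1.42 ± 0.08), a limb mesenchyme factor, Bmp2 (-0.47 ± 0.08) and the matrix gene Postn (-2.68 ± 0.34) were the 3 that fell.

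Paraxial genes, those of presomitic mesoderm and somites, moved both ways. Of 23, 5 rose and 10 fell (median -0.42). Msgn1 and Tbx6, which commit cells to presomitic mesoderm, were higher. Msgn1 stood at 8.9, 7.96 and 8.31 CPM without DOX and 46, 43 and 46.5 CPM with DOX, and Tbx6 changed by 0.94 ± 0.08. Somite genes fell in 6 of 11 cases (median -0.92). Meox1, a somite homeobox gene, stood at 8.49, 6.69 and 7.42 CPM without DOX and 1.53, 1.27 and 1.89 CPM with DOX. Foxc2, shared by somites and other mesoderm, went from 9.56 ± 0.44 to 1.79 ± 0.39 CPM. Primitive streak genes as a list included 10 rises among 22 and 6 falls.

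BMP genes rose in 21 of 40 cases and fell in 7 (median 0.70). Bmp2, Bmp4, Msx1 and Msx2 are also in the lateral and extraembryonic mesoderm list. Among ligands, Bmp4, the signal that patterns posterior mesoderm, stood at 6.32, 5.35 and 6.67 CPM without DOX and 56.2, 57.4 and 57.8 CPM with DOX, a change of 3.25 ± 0.08 (edgeR, adjusted p = 1.18e-13). Bmp5 (0.95 ± 0.10) and Bmp6 (1.56 ± 0.12 to 5.03 ± 0.47 CPM) rose, while Bmp2 and Bmp7 (-0.64 ± 0.07) fell. Of the receptors, the endothelial type I receptor gene Acvrl1 went from 1.55 ± 0.6 to 9.71 ± 0.42 CPM and its partner Eng (endoglin) from 6.79 ± 0.57 to 43.6 ± 3.1 CPM. Antagonists divided. Chrd and Nog fell, as described above, and Bmper, an endothelial regulator of BMP, went from 5.34 ± 0.32 to 34.4 ± 0.52 CPM. Bambi, a decoy receptor that BMP induces, rose from 13.4 ± 0.55 to 34.7 ± 0.44 CPM, and the intracellular inhibitor Smad7 from 33.4 ± 0.74 to 78.7 ± 4.4 CPM. Of 9 effectors and targets, 8 rose. These include Smad1 (60.9 ± 2.0 to 117 ± 5.8 CPM), a transducer of the signal.

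FGF genes fell more often than they rose, 15 against 7 of 42 (median -0.15). Fgf5, a ligand of the formative epiblast, stood at 132, 137 and 139.7 CPM without DOX and 45.2, 44.4 and 41.4 CPM with DOX. Fgf10, a ligand of lateral mesoderm, stood at 10.1, 14.8 and 11.4 CPM without DOX and 42.4, 42.3 and 38.4 CPM with DOX. These groups lay apart in opposite directions. Dusp6, the phosphatase that ERK signalling induces, rose from 207 ± 7.4 to 318 ± 9.1 CPM, while the immediate early genes Egr1 (-1.43 ± 0.08) and Ier3 (-1.87 ± 0.13) fell. Retinoic acid genes fell in 10 of 18 cases. Aldh1a2, the synthesising enzyme of early mesoderm, stood at 29.5, 26.5 and 29.3 CPM without DOX and 15.3, 15.7 and 15.3 CPM with DOX, and the retinol uptake receptor gene Stra6 changed by -1.36 ± 0.14. The receptor gene Rarb, itself induced by retinoic acid, went from 3.53 ± 0.23 to 0.901 ± 0.31 CPM. None of the 3 Cyp26 genes, which break retinoic acid down, passed. At an unadjusted edgeR p under 0.05, 0 were higher and 1 lower, and DESeq2 called 0 higher and 0 lower.

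Notch genes showed 4 rises and 8 falls among 28. Notch4, the endothelial receptor, stood at 13.5, 12.2 and 13.8 CPM without DOX and 35.1, 35.1 and 32.8 CPM with DOX, and Notch2 went from 268 ± 15 to 169 ± 13 CPM. None of 6 HES and HEY targets passed in either direction. At an unadjusted edgeR p under 0.05, 0 were higher and 1 lower, and DESeq2 called 0 higher and 1 lower. Of 19 TGF-beta genes 7 rose and 5 fell. Tgfb1 stood at 27.5, 25 and 24.4 CPM without DOX and 93, 92.7 and 86.6 CPM with DOX, and Tgfb2 changed by 1.41 ± 0.07. Both ligands were higher in all 3 DOX libraries. The PDGF receptor genes Pdgfra, of early mesoderm, and Pdgfrb, of mural cells, went from 26.7 ± 0.48 to 76.5 ± 2.4 CPM and from 13 ± 0.15 to 39.1 ± 0.99 CPM. Smooth muscle genes were mixed, Acta2 (1.42 ± 0.18) rising and Cnn1 (-1.22 ± 0.16) falling.

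Guidance genes, which steer axons, migrating cells and vessel sprouts, held some of the larger single changes, although the list had 19 rises and 24 falls among 76 and a median of -0.09. Unc5c (ENSMUSG00000059921, chromosome 3, 141465564 to 141834924), a netrin receptor, stood at 2.96, 3.44 and 3.33 CPM without DOX and 112, 119.8 and 116 CPM with DOX, a change of 5.17 ± 0.09 (edgeR, adjusted p = 3e-15). Nrp2, a semaphorin and VEGF co-receptor, went from 37.3 ± 2.5 to 244 ± 11 CPM, and its partners Nrp1 and Plxnd1 changed by 1.86 ± 0.07 and 2.71 ± 0.08. Robo2, a SLIT receptor, went from 1.88 ± 0.49 to 16.8 ± 0.83 CPM. All 3 SLIT ligand genes fell. Slit2 stood at 216, 225 and 214 CPM without DOX and 78.8, 87.5 and 78.5 CPM with DOX, Slit1 went from 34.5 ± 0.6 to 8.5 ± 0.93 CPM and Slit3 from 147 ± 8.5 to 109 ± 10.2 CPM. Of 14 Eph receptor genes 4 fell, with Epha2 going from 128 ± 4.2 to 70.5 ± 2.0 CPM and Ephb2 from 62.8 ± 1.3 to 31.3 ± 0.39 CPM. Efnb2, the ephrin of arteries and somites, fell from 84.6 ± 1.9 to 42.3 ± 2.4 CPM, and Efna3 rose from 19.3 ± 2.2 to 41.9 ± 2.9 CPM. Sema3a rose (1.97 ± 0.09), whereas Sema3e (-1.41 ± 0.09) and Sema6d (-1.07 ± 0.07) fell.

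Epithelial junction genes fell in 23 of 33 cases and rose in 2 (median -0.84). Cdh1 (ENSMUSG00000000303, chromosome 8, 106603350 to 106670247), the epithelial cadherin, stood at 965, 932 and 914 CPM without DOX and 472, 461 and 459.7 CPM with DOX. Cldn6, a claudin of tight junctions in epiblast and endoderm, stood at 177, 160.1 and 167 CPM without DOX and 51.7, 48.3 and 54.7 CPM with DOX. The groups were apart for both. The keratin genes Krt8, Krt18 and Krt19, which form the filaments of simple epithelia, changed by -1.25 ± 0.07, -1.54 ± 0.08 and -1.68 ± 0.09. Jup (plakoglobin), which endothelial junctions also use, rose from 79.4 ± 1.4 to 112 ± 3.3 CPM. Of 8 transcription factors of epithelial-mesenchymal transition, 6 rose. The lateral and extraembryonic mesoderm list also holds Snai1, Snai2, Twist1 and Prrx1 of these. Snai1, a repressor of Cdh1, stood at 26.3, 26.6 and 25.1 CPM without DOX and 84.6, 85 and 73.9 CPM with DOX, and Zeb1 changed by 0.63 ± 0.07. Prrx1 and Foxc2 were the 2 that fell. Besides Cdh5, the mesenchymal cadherin genes Cdh11 and Cdh6 rose. Cdh11 stood at 21.1, 20.4 and 20.9 CPM without DOX and 128, 126 and 128 CPM with DOX.

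Extracellular matrix and its receptors rose in 46 of 104 cases and fell in 15 (median 0.29). Fn1 (ENSMUSG00000026193, chromosome 1, 71585473 to 71653280), fibronectin, stood at 1058, 1109 and 1055 CPM without DOX and 4844, 5166 and 4419 CPM with DOX. The summed level of the list, Fn1 included, was 4535 to 4640.0 CPM without DOX and 8297 to 9260.0 CPM with DOX. Fn1 alone supplied most of this rise. Of 41 collagen genes 18 rose, among them Col5a2 (1.89 ± 0.08) and Col14a1 (3.06 ± 0.13). Col2a1, a notochord and cartilage collagen, fell from 38.2 ± 0.86 to 9.54 ± 0.48 CPM. Laminin genes parted by chain, Lama4 of vessel basement membranes going from 6.18 ± 0.51 to 19.4 ± 0.59 CPM and Lama5 of epithelia from 556 ± 23 to 332 ± 27 CPM. Integrin genes rose in 9 of 25 cases, with the platelet integrin genes Itga2b (1.92 ± 0.11) and Itgb3 (3.55 ± 0.21) among them, and Itga6, a laminin receptor subunit, fell (-0.36 ± 0.08).

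Protocadherins formed a further adhesion group. Clustered protocadherins, cell-identity adhesion molecules best known from neurons, rose in 18 of 47 cases and fell in 1, with a median of 0.36. The gamma cluster held 13 of these rises among 22 genes. Pcdhgc3 stood at 65.3, 68.4 and 64.9 CPM without DOX and 99.8, 102 and 96 CPM with DOX. Variants of a cluster share their last exons, and the handling of reads that fit several genes is not given, so single gamma genes are uncertain. Outside the clusters, Fat4, an atypical cadherin of planar polarity, stood at 13.5, 15.8 and 14.4 CPM without DOX and 81.7, 90.7 and 81.3 CPM with DOX. Pcdh18 went from 26.6 ± 1.3 to 84.2 ± 1.2 CPM and the endothelial Pcdh12 from 0.561 ± 0.44 to 11.9 ± 0.59 CPM.

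Most glycolysis genes fell. Of 31 genes of sugar uptake, glycolysis and the pyruvate gate, 21 fell and 4 rose (median -0.59). All 4 uptake and lactate transport genes fell. Slc2a1 (ENSMUSG00000028645, chromosome 4, 119108745 to 119137330), the glucose transporter GLUT1, stood at 959.8, 897 and 928 CPM without DOX and 307, 275 and 303 CPM with DOX, and the lactate exporter gene Slc16a3 at 172, 165 and 175 CPM without DOX and 61.6, 56.3 and 59.7 CPM with DOX. Among the early steps 9 of 11 fell. Pfkfb3, whose product activates phosphofructokinase, stood at 98.1, 98.4 and 96.6 CPM without DOX and 22.8, 21.9 and 21.1 CPM with DOX, and the related Pfkfb4 rose from 8.12 ± 0.28 to 13.2 ± 1.6 CPM. In the later steps 7 of 8 fell, as for Pgk1 (-1.18 ± 0.07), Pkm (-0.67 ± 0.07) and Ldha (-0.91 ± 0.07), which makes lactate. Mpc1 and Mpc2, the mitochondrial pyruvate carrier, went from 11.6 ± 0.51 to 18.6 ± 1.8 CPM and from 9.62 ± 0.66 to 11.6 ± 0.29 CPM and rose, and of the kinases that block pyruvate dehydrogenase, Pdk2 fell from 11.4 ± 0.87 to 8.03 ± 0.28 CPM and Pdk4 rose from 1.89 ± 0.092 to 2.81 ± 0.16 CPM.

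Targets of the hypoxia-inducible factor HIF, which overlap glycolysis in regulation but were listed here without the glycolytic genes, fell in 23 of 24 cases (median -1.09). Ndrg1 (ENSMUSG00000005125, chromosome 15, 66929318 to 66969641), a stress-response gene, stood at 147, 141 and 151 CPM without DOX and 24.2, 24.6 and 25.1 CPM with DOX. Bnip3, which triggers mitophagy, stood at 214, 199 and 218 CPM without DOX and 58.3, 60.2 and 60.9 CPM with DOX, and Ddit4, an inhibitor of mTORC1, at 215, 213 and 215 CPM without DOX and 71.6, 67.1 and 63.6 CPM with DOX. DOX libraries were low in all 3 genes. Egln1, the oxygen-sensing prolyl hydroxylase that HIF also induces, went from 72.5 ± 2.4 to 33.8 ± 0.45 CPM. Car9, a carbonic anhydrase, was the single list member that did not pass, at -0.29 ± 0.47. The summed level of the list was 1910.0 to 1926 CPM without DOX and 850.1 to 859 CPM with DOX. Oxygen tension and cell density are not given in the labels, and whether they differed between the groups cannot be told.

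The core of the hypoxia response element, ACGTG on either strand (CACGT in reverse), was searched in the same 250-base windows. It was present in 10 of 20 promoters of hypoxia targets (50%) and 12 of 30 of glycolysis genes (40%), against 20.4% of 13560 promoters of tested genes and 16.5% of all promoters. In CACGTG both strands match and overlap. Shown are the 120 bases before the start of 4 genes that fell and hold the core close to their start, with the matches in capitals. The genes were chosen for these matches. They are Bnip3 (chromosome 7, chr7:138909507-138909626, minus strand), Slc2a1 (chromosome 4, chr4:119108625-119108744, plus strand), Egln1 (chromosome 8, chr8:124949255-124949374, minus strand) and Pgam1 (chromosome 19, chr19:41911751-41911870, plus strand), all in GRCm38.p6.
Bnip3: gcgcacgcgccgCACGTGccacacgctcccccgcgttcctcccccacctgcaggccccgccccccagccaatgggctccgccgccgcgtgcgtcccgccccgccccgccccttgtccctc
Slc2a1: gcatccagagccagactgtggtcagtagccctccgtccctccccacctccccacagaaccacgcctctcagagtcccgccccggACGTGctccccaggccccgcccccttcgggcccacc
Egln1: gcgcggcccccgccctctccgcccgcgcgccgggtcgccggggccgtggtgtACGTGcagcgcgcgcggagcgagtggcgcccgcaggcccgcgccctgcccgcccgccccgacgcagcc
Pgam1: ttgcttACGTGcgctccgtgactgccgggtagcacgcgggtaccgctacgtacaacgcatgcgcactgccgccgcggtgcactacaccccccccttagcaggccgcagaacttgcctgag
Bnip3 carries the palindrome CACGTG. Pgam1, the phosphoglycerate mutase gene, went from 230.1 ± 5.7 to 150.2 ± 3.8 CPM. Whether HIF was bound at any of these sites was not measured in these libraries.

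In mitochondrial metabolism, few genes passed. Of 25 genes of the tricarboxylic acid cycle 3 rose and 1 fell, with Pcx, pyruvate carboxylase, going from 23.5 ± 2.0 to 35.4 ± 0.91 CPM and Cs, citrate synthase, from 248 ± 4.1 to 304 ± 9.0 CPM. Of 77 nuclear genes of the respiratory chain 5 rose and 1 fell (median 0.08), which is below the shares over all genes. Protein genes of the mitochondrial genome rose in 10 of 13 cases (median 0.54). For example mt-Nd2, a complex I subunit, stood at 4100.0, 4300.0 and 4236 CPM without DOX and 6232, 6586 and 6433 CPM with DOX. The mitochondrial share of all counts was 4.02 to 4.13% without DOX and 5.14 to 5.35% with DOX. Mitochondrial share is also used as a sign of RNA quality, and its part in the result was not tested. Without a low-count filter, 6 of these genes rose in place of 10.

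**Figure D4:**
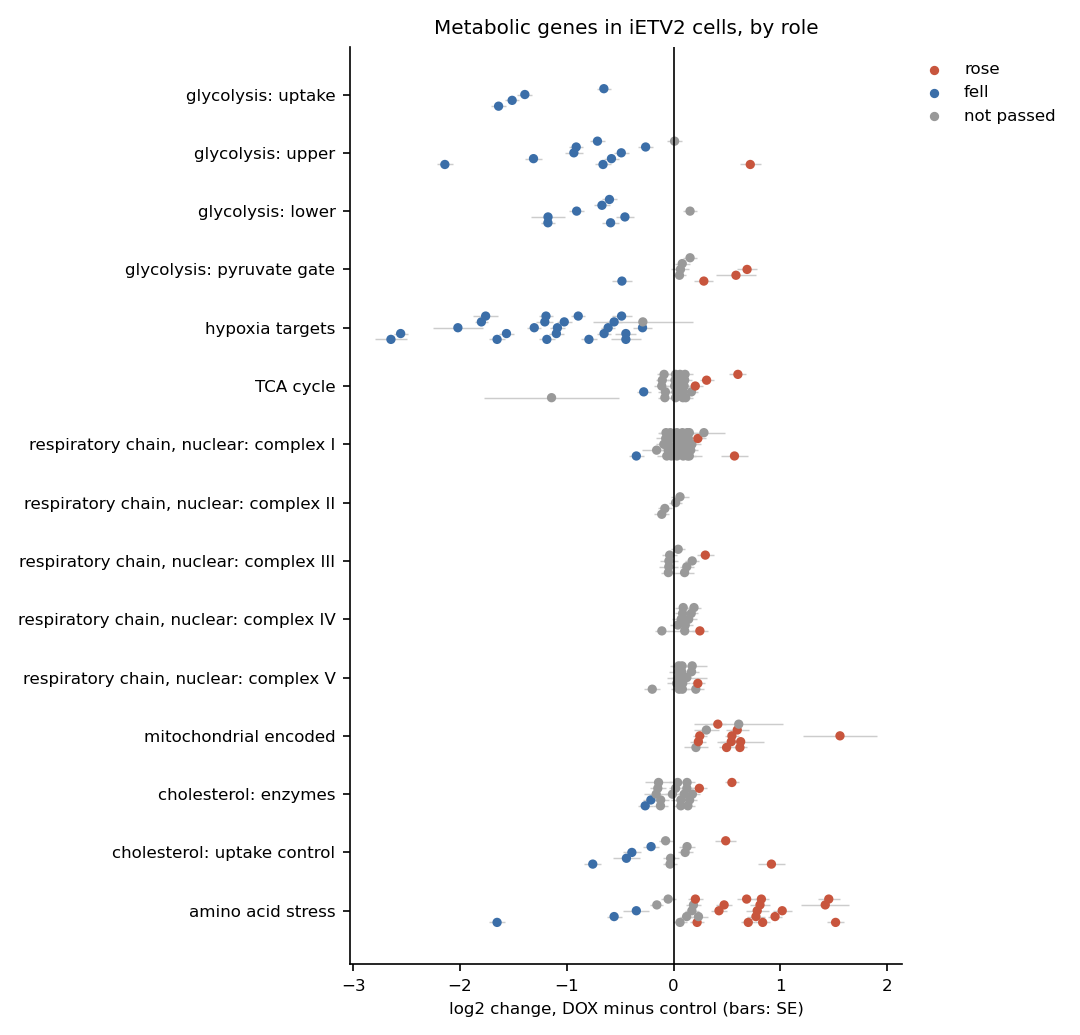
Log2 change (DOX minus control) of each tested metabolic gene in iETV2 cells by pathway and role; points are genes, bars are SE, and colours mark rose, fell and not passed. Glycolysis and hypoxia target genes lie mostly left of 0, respiratory chain genes of the nucleus cluster around 0 (median 0.08), and mitochondrially encoded and amino acid stress genes lie mostly to the right.

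Genes of amino acid supply and the ATF4 stress response rose in 16 of 26 cases (median 0.45). Slc7a1, the transporter of arginine and lysine, stood at 40.3, 37.4 and 36.2 CPM without DOX and 111, 109 and 103 CPM with DOX, and the cystine transporter gene Slc7a11 at 5.0, 4.46 and 5.59 CPM without DOX and 12.7, 13.7 and 14.2 CPM with DOX. Psat1, an enzyme of serine synthesis, went from 185 ± 2.0 to 298 ± 7.7 CPM. Ddit3, the death-linked factor CHOP, fell from 6.0 ± 0.44 to 4.66 ± 0.37 CPM, and Atf4 itself went from 186 ± 8.3 to 192 ± 10.2 CPM and did not pass (adjusted p = 0.627, edgeR). In serine and one-carbon metabolism 6 of 17 genes rose, including Mthfd2 (0.68 ± 0.07) and Shmt2 (0.49 ± 0.07). Heme and iron genes rose in 8 of 21 cases, among them Alas2, the erythroid enzyme that starts heme synthesis, from 0.284 ± 0.28 to 5.35 ± 0.4 CPM, and Trf (transferrin) from 1.17 ± 0.51 to 7.79 ± 0.97 CPM.

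None of 76 ribosomal protein genes passed in either direction by edgeR. At an unadjusted edgeR p under 0.05, 0 were higher and 0 lower, and DESeq2 called 0 higher and 0 lower. Their changes lay between -0.16 and 0.14. Cholesterol synthesis and its control had 4 rises and 6 falls among 31, fatty acid metabolism 6 and 5 among 29, and glutathione genes 4 and 4 among 19. The sterol response pattern TCACNCCAC, searched on both strands, was in 1 of 22 promoters of the cholesterol list (4.55%), against 1.03% of promoters of tested genes and 1.03% of all. Within fatty acid oxidation, Cpt1a, which admits fatty acids to mitochondria, rose from 19 ± 0.68 to 33.9 ± 2.1 CPM. Cell cycle genes had 6 rises and 6 falls among 44. Cdkn2a, an inhibitor of the cycle, stood at 1.32, 1.47 and 1.78 CPM without DOX and 5.92, 6.64 and 6.98 CPM with DOX, and Ccnd2, a D-type cyclin, went from 98.2 ± 5.9 to 195 ± 7.4 CPM. Of 22 p53 targets 8 rose and 3 fell, and of 21 interferon genes 7 rose and 2 fell.

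Of 12 core pluripotency genes, 3 rose and 4 fell (median -0.11). Dppa4 (8.42 ± 0.56 to 29.1 ± 2.0 CPM) and Dppa2 (8.43 ± 0.85 to 22.8 ± 2.1 CPM), which bind chromatin as partners, rose. Of the central factors, Pou5f1 changed by -0.39 ± 0.09, Nanog by -0.18 ± 0.07 (adjusted p = 0.0607, edgeR) and Sox2 by -0.21 ± 0.09 (adjusted p = 0.0954, edgeR), the latter 2 not passing. Naive genes, those of the preimplantation epiblast, rose in 14 of 20 cases and fell in 2 (median 1.08). Cdh1, described above, is among the falls. The summed level of the list was lower with DOX, at 1257 to 1306 CPM without DOX and 1150 to 1192 CPM with DOX. Zfp42 (Rex1) stood at 13.6, 13.7 and 15.5 CPM without DOX and 34.9, 33.1 and 36.6 CPM with DOX, and Esrrb at 23.1, 23.6 and 21.4 CPM without DOX and 61.2, 55.4 and 54.7 CPM with DOX. DOX libraries were above all untreated libraries for both. Of the other stem cell markers, Tfcp2l1 (1.03 ± 0.07) and Nr0b1 (1.20 ± 0.15) rose, and Klf4 went from 6.49 ± 0.95 to 7.25 ± 0.67 CPM without passing. Some naive genes have other uses, such as Pecam1 (2.35 ± 0.09) in endothelium and Tbx3 in mesoderm. Formative epiblast genes fell in 12 of 18 cases (median -0.63), with Fgf5, Otx2 and Pou3f1 (-2.50 ± 0.11) among them. Germline genes rose in 12 of 23 cases, including Ddx4 (2.79 ± 0.23 to 5.39 ± 0.63 CPM), and fell in 3. The germline list shares Prdm14 and Dppa3 with the naive list and Tfap2c with the trophoblast list. Its summed level was 148 to 154 CPM without DOX and 144 to 154 CPM with DOX.

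Markers of other cells that such a culture can hold were measured as whole lists. Visceral endoderm genes rose in 11 of 24 cases and fell in 5, with a summed level of 686 to 697 CPM without DOX and 893 to 903 CPM with DOX. The rises include Sox7, which the definitive endoderm list holds too, and Cited1, which the paraxial list holds too. Definitive endoderm genes rose in 5 and fell in 10 of 21 cases. The falls there include Foxa2 and Cer1, which the node list holds too. Trophoblast genes rose in 10 and fell in 4 of 16 cases. The rises include Hand1, Cdx2 and Eomes, which other lists above hold too. Elf5, the defining factor of trophoblast, went from 0.374 ± 0.4 to 0.25 ± 0.37 CPM without passing. Feeder fibroblast genes had a summed level of 85.8 to 107 CPM without DOX and 145 to 152 CPM with DOX, with 6 rises and 4 falls among 15. Postn (-2.68 ± 0.34) and Thy1 (-0.47 ± 0.14) of that list fell, and Pdgfrb and Twist2 (2.55 ± 0.35) rose. The part of these cell types in the changes above was not tested.

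Imprinted genes, expressed from the copy of a single parent, rose in 12 of 35 cases and fell in 7. The growth gene Igf2 stood at 6.31, 6.72 and 7.26 CPM without DOX and 32.6, 35 and 24.6 CPM with DOX, and the placental growth restrictor Phlda2 went from 10.8 ± 0.94 to 51 ± 2.6 CPM. H19, the noncoding partner of Igf2, rose by 1.80 ± 0.12. Snrpn (-0.89 ± 0.07) and Magel2 (-1.29 ± 0.10), genes of the same imprinted cluster on chromosome 7, fell.

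Gene families were also taken by symbol stem without regard to function. Of 231 families with at least 10 tested genes, Cfap had the highest share of falls, 25 of 30 (83.3%), followed by Ift (10 of 15, 66.7%), Fzd (6 of 10, 60%) and Dnah (8 of 15, 53.3%). Armc and Ttll, each at 50%, followed. Ttll genes encode enzymes that modify axonemal tubulin. The highest shares of rises were in Hoxb (8 of 11, 72.7%), Hoxa (7 of 11, 63.6%) and Dock (6 of 11, 54.5%), a family of activators of small GTPases. Ano, Atf, Bmp, Gbp, Hoxd, Itga, Man, Pcdhga, St and Tbx followed at 50% each. A stem takes every symbol that begins with it, so Hoxb and Hoxd hold more tested entries than the 9 HOX genes each counted above. Among the 15 largest falls over genes with a symbol of a known gene, an average log2 CPM of at least 1 and groups apart, 13 were members of the motile cilia list, and the others were Foxd4 and Noto. Beyond blood, endothelium and the genes named above, the 15 largest rises by the same rule held the growth factor gene Igf1, from 0.182 ± 0.057 to 12.8 ± 1.4 CPM, and the adaptor gene Samsn1, from 0.0443 ± 0.043 to 4.14 ± 0.29 CPM.

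The second DOX-treated line, iETV2-KDM4A (H188A), was used to test where its response differed. Its label names the H188A form of KDM4A, and it has 3 untreated libraries and 3 with DOX. The sample descriptions number the lines as experiments 1 and 2, so line and experiment cannot be told apart. The level of Etv2 in the H188A line is not reported here, so the lines are not compared at a known equal level of Etv2. The line-by-DOX interaction, H188A minus iETV2, was tested on 12 libraries. Of 25516 genes, 3679 passed (14.4%), 2098 with a more positive response in the H188A line (8.22%) and 1581 with a more negative response (6.2%). Among motile cilia genes 75 of 136 passed with a positive sign and 1 with a negative sign. Among hypoxia targets 20 of 24 and among glycolysis genes 19 of 31 were positive. Of HOX genes 17 of 38 were negative, as were 27 of 40 lateral mesoderm genes.

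The untreated levels of the lines differed for the same genes, so the interaction compares changes from unlike starting points. Foxj1 stood at 9.88 ± 0.54 CPM without and 10.7 ± 1.6 CPM with DOX in the H188A line, near the level of iETV2 with DOX. Ptch1 stood at 179 ± 6.9 and 169 ± 15 CPM there. T stood at 0.357 ± 0.19 and 1.39 ± 0.23 CPM, against means of 862 and 679 CPM in iETV2. Hand1 stood at 1.21 ± 0.094 and 1.12 ± 0.096 CPM in the H188A line, close to untreated iETV2, and its interaction was -7.32 ± 0.19 (edgeR, adjusted p = 3.23e-12). Untreated levels were lower in the H188A line for 119 of 136 motile cilia genes (87.5%) and 22 of 24 hypoxia targets (91.7%), against 46.7% of all 25516 genes. Such shares were not limited to these lists, with 62 of 76 ribosomal protein genes (81.6%) also lower. H188A control replicates 1 and 2 also stood apart in summed counts of odorant, pheromone and trace-amine receptor genes. These were 625.1 and 205.0 CPM, against 37.5 to 98.4 CPM in the other 4 libraries of that line. Low genes such as HOX genes are measured against that, and its part in their interaction was not tested.

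**Figure D5:**
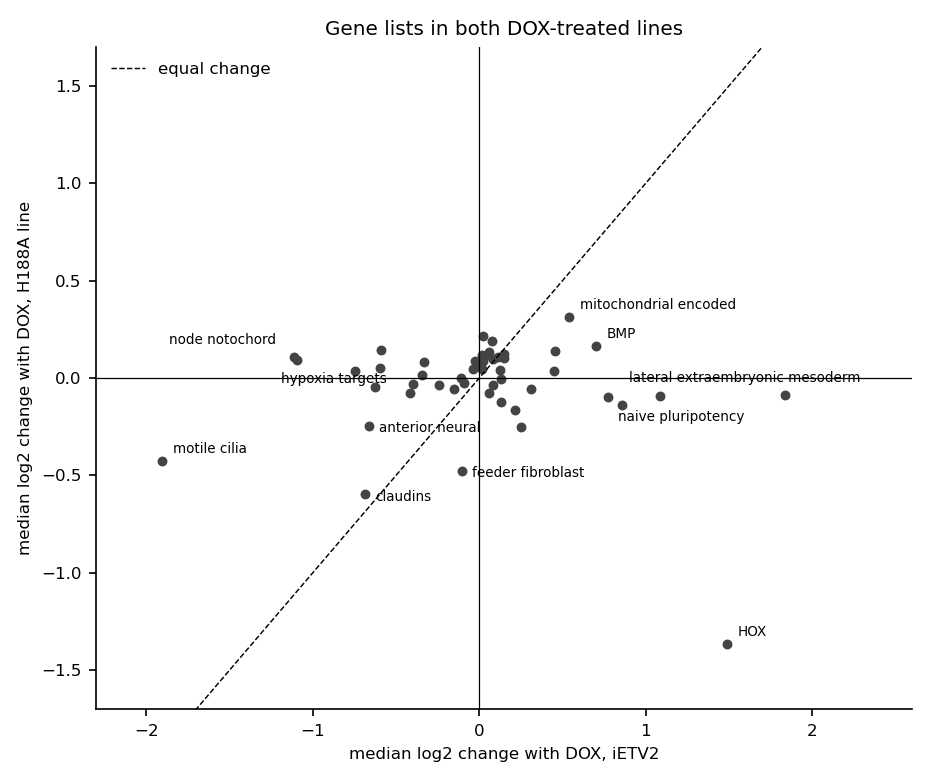
Median log2 change with DOX of each of 49 gene lists in iETV2 (x axis) and in the H188A line (y axis), both from the fit on 12 libraries; the dashed line marks equal change. HOX genes (1.49 against -1.37, the farthest list by the median difference), motile cilia (-1.90 against -0.43), hypoxia targets (-1.09 against 0.09) and lateral and extraembryonic mesoderm (1.84 against -0.09) lie far from the dashed line.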

How the data were processed

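RNA counts per Ensembl gene were deposited by the authors, 1 file per library, as whole-number counts, per the file headers and values. The submitters' processing notes name STAR 2.7.10b, featureCounts 2.0.6, HTSeq 2.0.3, StringTie 2.2.1 and GRCm38 without their roles. Which counter made these counts and its strand setting are not given in the sources used here. All 6 iETV2 libraries were fitted with edgeR 4.0.16 in R 4.3.3 (TMM scaling, filterByExpr, quasi-likelihood F test, Benjamini-Hochberg, threshold 0.05), and the SE is the absolute log2 change over the square root of F. The script was tested on simulated data. The line-by-DOX interaction used 12 libraries. No pair of replicates agreed within sampling noise.

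The 49 lists and the members described were chosen with earlier results of these data known. Named are Etv2, Kdr, Tal1 and Cdh5, up to 3 genes per role and direction with the smallest adjusted p, the 15 largest changes per direction, stem cell markers, and members that did not pass where a count needs them. Cfap45, Iqca, Egln1 and Pgam1 were added for their promoters. Promoter sequences and positions are from RefSeq (GRCm38.p6), and 437 of 440 named genes had a position. Alternatives were RLE scaling, library totals, DESeq2 1.42.0, other count filters, a replicate block, 12 libraries in 1 fit and each library left out. H3K9me3 libraries and the KDM4A/4C knockout were not analysed here.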

Additional observations from a re-analysis of the deposited data

Results flagged for a closer look

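The response to DOX differed between the iETV2 and H188A lines by the line-by-DOX interaction in edgeR's quasi-likelihood test with Benjamini-Hochberg adjustment, which 3679 genes passed. In 7 genes described above the difference, H188A minus iETV2, was as follows. For Foxj1 it was 4.18 ± 0.15 (log2 ± SE, adjusted p = 1.01e-10, edgeR). For the hedgehog receptor gene Ptch1 it was 2.13 ± 0.13 (adjusted p = 3.2e-08, edgeR). Glucose transporter gene Slc2a1 differed by 1.7 ± 0.1 and the hypoxia target Bnip3 by 2.1 ± 0.09 (adjusted p = 2.49e-08 and 1.22e-09, edgeR). These 4 genes fell with DOX in iETV2. In the H188A line Foxj1 (0.17), Ptch1 (-0.03) and Slc2a1 (0.06) did not pass (adjusted p = 0.331, 0.85 and 0.579, edgeR), and Bnip3 rose by 0.30 (adjusted p = 0.0258, edgeR).

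The 3 others rose in iETV2 and had negative differences. They were -2.78 ± 0.21 for Hoxb1, -7.32 ± 0.19 for Hand1 and -2.21 ± 0.12 for Fn1 (adjusted p = 3.01e-07, 3.23e-12 and 1.06e-08, edgeR). Untreated levels already differed between the lines for several of these genes, with Foxj1 at 9.88 CPM and Slc2a1 at 469.6 CPM in untreated cells of the H188A line. The part of these starting levels in the differences was not tested.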

How the results depend on the processing

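All 5939 calls kept their sign in each alternative in which the gene was tested. Counts of calls over all genes were 5876 with RLE scaling, 6464 with library totals, 6074 with DESeq2, 4577 without a count filter, 6643 at 1 CPM or more in 3 libraries and 4979 in the fit on 12 libraries. Leaving out single libraries gave 4577 to 6731 calls, with 1918 to 3178 higher and 2218 to 3553 lower. The lowest count of higher calls came without DOX replicate 1. Calls that were higher made up 50.7% with all libraries, 41.1% without DOX replicate 1 and 42.5% without DOX replicate 2. Both libraries numbered 3, left out together after the data were seen, gave 6329 calls. Whether the replicate numbers pair the samples could not be settled. Deviations from the group mean correlated at -0.012, 0.323 and 0.562 between libraries with the same number. DOX replicates 2 and 3 correlated best with the control of their own number, and DOX replicate 1 with control replicate 2 (0.449). With 3 libraries a group such deviations are not independent, so the check cannot exclude pairing or a shared batch. With the replicate number as a block, 8380 genes passed. For lists, 15 HOX genes rose in the fit on 12 libraries in place of 24 (20 to 25 with single libraries left out), and 6 mitochondrially encoded genes rose without a count filter in place of 10 (7 to 11). List counts were compared in this way for 16 lists, each in its more frequent direction, and the others of these moved by less than 1.5 times. Lists outside these 16 are not covered by this statement. Of 440 named genes, 56 lost their call without a count filter, 46 without control replicate 1 and 37 in the fit on 12 libraries, and none reversed in any alternative run. For the interaction, leaving out single libraries gave 2585 to 4112 calls, with 1368 to 2180 positive and 1093 to 1932 negative, the lowest positive count coming without H188A DOX replicate 1. A replicate block gave 4847. The cause of these differences was not tested. With 3 libraries a group, low genes such as most HOX genes have large errors.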
